A study of Homo sapiens with 3 samples.

Results

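Small RNA libraries of CAL-27, an established human tongue squamous carcinoma line, were examined for 4 mature microRNAs (miRNAs): hsa-miR-149-5p, hsa-miR-339-5p, hsa-miR-296-5p and hsa-miR-139-5p, written below without the species prefix. They were chosen by name, as miRNAs of 52% GC or more with low values in the library labelled Mock, so their low level in Mock is a description and not a finding. They are 4 of 1149 listed miRNAs, and all 4 are among the 208 whose 3 libraries averaged at least 10 rpm, called measured here. The unit rpm is reads per 1000000 reads of a library total. Of the measured miRNAs, 89 have a GC content of 52% or more, so 85 GC-rich miRNAs remain for comparison. How low a value had to be was not defined by the rule.

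The study has 3 libraries, with 1 library in each group. RR came from radioresistant clones given 2 Gy of X-rays a day in 2 cycles of 5 days, each with 2 weeks of recovery, after which single-cell clones were isolated. Mock, by the series' design text, came from clones after a single dose of 2 Gy. CC came from untreated clones of the same parental line. The number of clones behind a library is not stated. The treatment tags name a 2 Gy dose on RR and irradiation without a dose on Mock, so each direction below holds for the library as labelled. With 1 library per group there is no replicate check, no test across replicates and no p-value. Intervals cover the counting error of reads only, not differences between replicates. As no molecular identifiers separate PCR copies from independent molecules, they can understate even that error.

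A miRNA hairpin yields a strand from its 5′ side (5p) and a strand from its 3′ side (3p), and the strand held by an Argonaute protein represses mRNAs that pair with its seed, bases 2 to 8. miR-149-5p has been described as restraining proliferation and migration in several carcinomas. miR-339-5p represses MDM2, the ubiquitin ligase that degrades p53. miR-296-5p was described as an angiogenic miRNA of endothelial cells that represses HGS, a factor of growth factor receptor sorting. miR-139-5p has been described in breast cancer cells as a repressor of DNA repair genes and of resistance to radiation.

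The mature sequences are shown because their base content, and not only their names, set these miRNAs together. The lines give each strand 5′ to 3′ from RefSeq (GRCh38.p14), with the seed in capitals.
miR-149-5p: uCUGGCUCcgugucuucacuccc
miR-339-5p: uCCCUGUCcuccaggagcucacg
miR-296-5p: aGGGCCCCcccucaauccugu
miR-139-5p: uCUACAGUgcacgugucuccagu

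All 4 matched the deposited sequences. The 4 seeds differ from each other, and none of the other listed miRNAs has any of them. No listed miRNA lay within 2 mismatches of any of the 4, so none shares its reads with a near-identical copy in the table. GC content is 60.9% for miR-149-5p, 65.2% for miR-339-5p, 66.7% for miR-296-5p and 52.2% for miR-139-5p. Cytosine makes up most of it: miR-149-5p and miR-339-5p each hold 10 C in 23 bases, with 4 and 5 G. miR-296-5p holds 10 C and 4 G in 21 bases and includes a run of 7 C. miR-139-5p holds 7 C and 5 G in 23 bases. The 3 miRNAs of 23 bases also begin with UC, as do 8 of the 85 other GC-rich miRNAs (9.41%) and 23 of all 208 (11.1%).

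The 4 hairpins lie at separate loci. miR-149-5p maps to the plus strand at chr2:240456015-240456037, in an intron of GPC1, which encodes a cell-surface heparan sulphate proteoglycan. The non-coding gene AC110619.1 overlaps it on the opposite strand. miR-339-5p maps to the minus strand at chr7:1022990-1023012, in an intron of C7orf50. miR-139-5p maps to the minus strand at chr11:72615102-72615124, in an intron of PDE2A, a cyclic nucleotide phosphodiesterase. miR-296-5p maps to the minus strand at chr20:58817661-58817681, in an exon of the non-coding gene AL132655.2. Hosts are those of GENCODE release 29, and each of these 4 hosts lies on the strand of its miRNA. In mouse, miR-296 belongs to the imprinted Gnas locus.

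The level of each of the 4 was lowest in Mock. At the deposited scale 3 of the 4 were highest in RR, for miR-296-5p not beyond counting error. For miR-149-5p and miR-296-5p the order of RR and CC turned with the scaling, as given below. miR-339-5p was the most abundant, with 1304 rpm in RR, 599 rpm in Mock and 995 rpm in CC, from 13655, 6366 and 10712 reads. Its 95% Poisson intervals ran from 1282 to 1326 rpm in RR, from 584 to 614 in Mock and from 976 to 1014 in CC, so the 3 libraries were apart beyond counting error. By level it stood 28th of 208 in RR, 42nd in Mock and 27th in CC.

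miR-149-5p stood at 379 rpm in RR (367 to 391), 171 rpm in Mock (163 to 179) and 296 rpm in CC (285 to 306). The order was that of miR-339-5p, and no intervals overlapped. miR-139-5p stood at 74.1 rpm in RR (69.0 to 79.5), 36.0 rpm in Mock (32.5 to 39.8) and 74.7 rpm in CC (69.7 to 80.1). Its levels in RR and CC did not differ beyond counting error at the deposited scale, and Mock lay apart from both. miR-296-5p was the rarest, with 19.3 rpm in RR (16.7 to 22.1), 8.28 rpm in Mock (6.64 to 10.2) and 17.9 rpm in CC (15.5 to 20.6). Its values rest on 202, 88 and 193 reads, and those of RR and CC overlapped within their intervals.

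**Figure D1:**
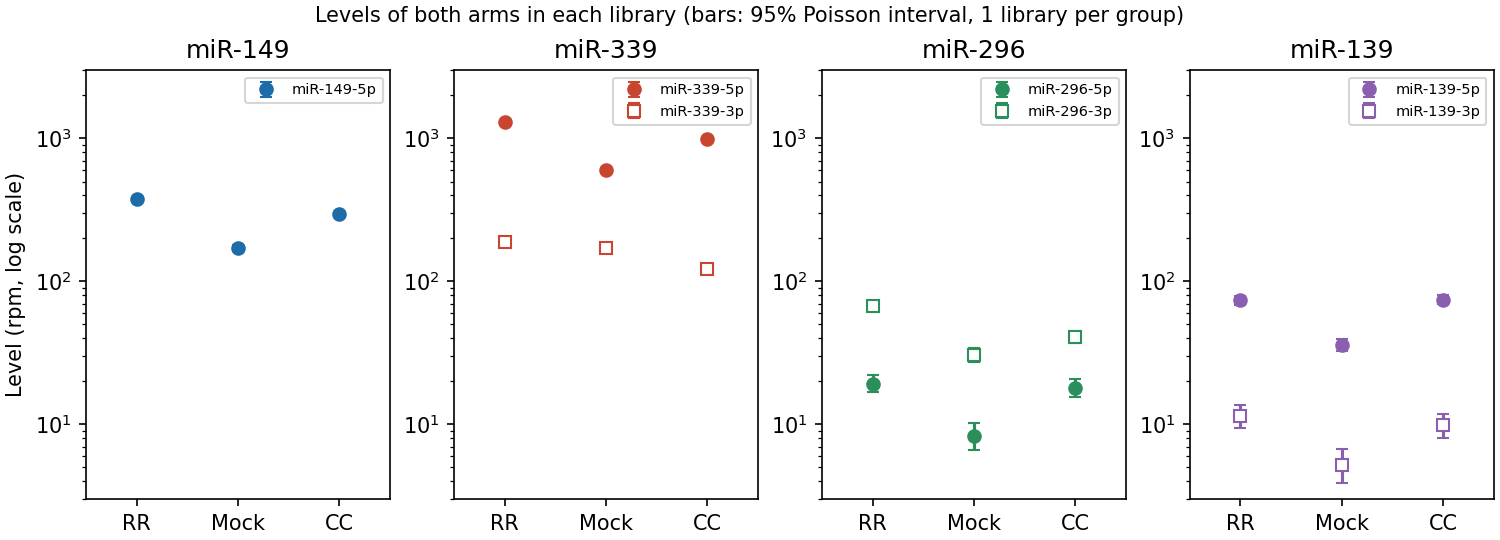
Level of each strand in rpm (log scale) in RR, Mock and CC, with 95% Poisson intervals and 1 library per group; filled circles are 5p strands and open squares 3p strands. The 4 filled series dip in Mock, whereas miR-339-3p stands at 171 rpm in Mock and 123 rpm in CC; miR-149-3p, with at most 1 read per library, is not drawn.

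The library totals behind these levels were 10473400 reads in RR, 10632785 in Mock and 10769990 in CC, of which the listed miRNAs took 20.5%, 23.2% and 16.3%. All 5 squamous epithelial markers were measured, with a summed level of 44137 rpm for RR, 28369 for Mock and 37902 for CC. The lower sum in Mock came from miR-205-5p, with 29651 rpm for RR, 14174 for Mock and 25945 for CC, while the other 4 markers had log2 ratios Mock over CC from 0.05 (miR-203a-3p) to 1.01 (miR-141-3p). The 4 erythroid markers summed to 12.2 rpm for RR, 408 for Mock and 9.47 for CC. Of that sum in Mock, miR-486-5p gave 398 rpm and miR-451a 7.71 rpm, and miR-144-3p was at 0 in RR and CC. The 4 muscle markers summed to 409, 345 and 341 rpm, almost all of it miR-1-3p, and miR-206 had 3.63 rpm for RR, 25.5 for Mock and 1.76 for CC. The 3 listed leukocyte markers reached 0.0955 rpm for RR, 1.98 for Mock and 0.0929 for CC. The 3 listed mesenchymal markers summed to 6.49, 5.64 and 6.41 rpm, the 2 endothelial ones to 81.9, 66.9 and 55.2, the 2 listed neural ones to 697, 784 and 567, and the hepatic miR-122-5p stood at 2.96, 5.45 and 4.46 rpm. The part of other cells in the levels of the 4 miRNAs was not tested. Fewer cells of a type and less RNA per cell cannot be told apart in bulk libraries.

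Mock over CC sets the library of the single exposure, by the design text, against the untreated one. As in each comparison here, exposure cannot be told apart from other differences between single libraries. miR-296-5p was 2.17-fold lower in Mock (1.67 to 2.82) and miR-139-5p 2.08-fold lower (1.84 to 2.35). miR-149-5p was 1.73-fold lower (1.63 to 1.83) and miR-339-5p 1.66-fold lower (1.61 to 1.71). On the scale of log2(rpm + 1), which understates changes of rare miRNAs, the ratios were -0.79 for miR-149-5p, -0.73 for miR-339-5p, -1.03 for miR-296-5p and -1.03 for miR-139-5p. Past 2-fold lower on that scale were 2 of the 4, beside 8 of 208 measured miRNAs (3.85%), and nothing is read from this, as the values chose the members. The median over the 208 was 0.28, and the 4 lay at -1.07, -1.01, -1.31 and -1.31 relative to it. The share of the listed miRNA reads taken by miR-339-5p was 0.258% in Mock and 0.612% in CC, and that of miR-149-5p 0.0739% in Mock and 0.182% in CC.

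RR over Mock compares the repeated with the single exposure, and it shares the Mock library with the comparison before it. The 4 ratios lay close together: 2.22-fold for miR-149-5p (2.10 to 2.34), 2.18-fold for miR-339-5p (2.11 to 2.24), 2.33-fold for miR-296-5p (1.81 to 3.03) and 2.06-fold for miR-139-5p (1.82 to 2.33). All 4 were past 2-fold on the log2 scale, beside 17 of 208 (8.17%), again from values that chose them. Of the other 85 GC-rich miRNAs 11 were past it at the same deposited scale (12.9%). With the libraries scaled by median ratio, miR-139-5p stood at 0.94 and 3 members were past 2-fold, beside 12 of 208.

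RR over CC is the comparison that the rule did not use. No member was past 2-fold in either direction, beside 2 of 208 higher (0.962%) and 1 lower (0.481%). miR-149-5p was 1.28-fold higher in RR (1.22 to 1.34) and miR-339-5p 1.31-fold higher (1.28 to 1.34), and both stood at the level of the measured miRNAs as a whole: their log2 ratios of 0.36 and 0.39 stood 0.00 and 0.03 above the median of 0.36. For miR-296-5p the ratio was 1.08 (0.879 to 1.32) and for miR-139-5p 0.991 (0.897 to 1.10). At the deposited scale neither thus differed from CC beyond counting error. The interval of miR-296-5p also holds the ratios of miR-149-5p and miR-339-5p, so it was not apart from them beyond counting error. On the log2 scale these 2 lay at -0.26 and -0.37 relative to the median of all measured miRNAs. With the libraries scaled by median ratio, where the median of all measured miRNAs is -0.02, the log2 ratio became -0.03 for miR-149-5p, -0.26 for miR-296-5p and -0.39 for miR-139-5p, and 0.0065 for miR-339-5p. The direction of miR-149-5p and miR-296-5p in RR over CC thus turned with the scaling. miR-139-5p, level with CC at the deposited scale, was lower in RR by median ratio, without the 10 most abundant miRNAs (-0.33) and by share (-0.34). For miR-139-5p 22 of 208 miRNAs had a lower ratio, and for miR-296-5p 37.

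**Figure D2:**
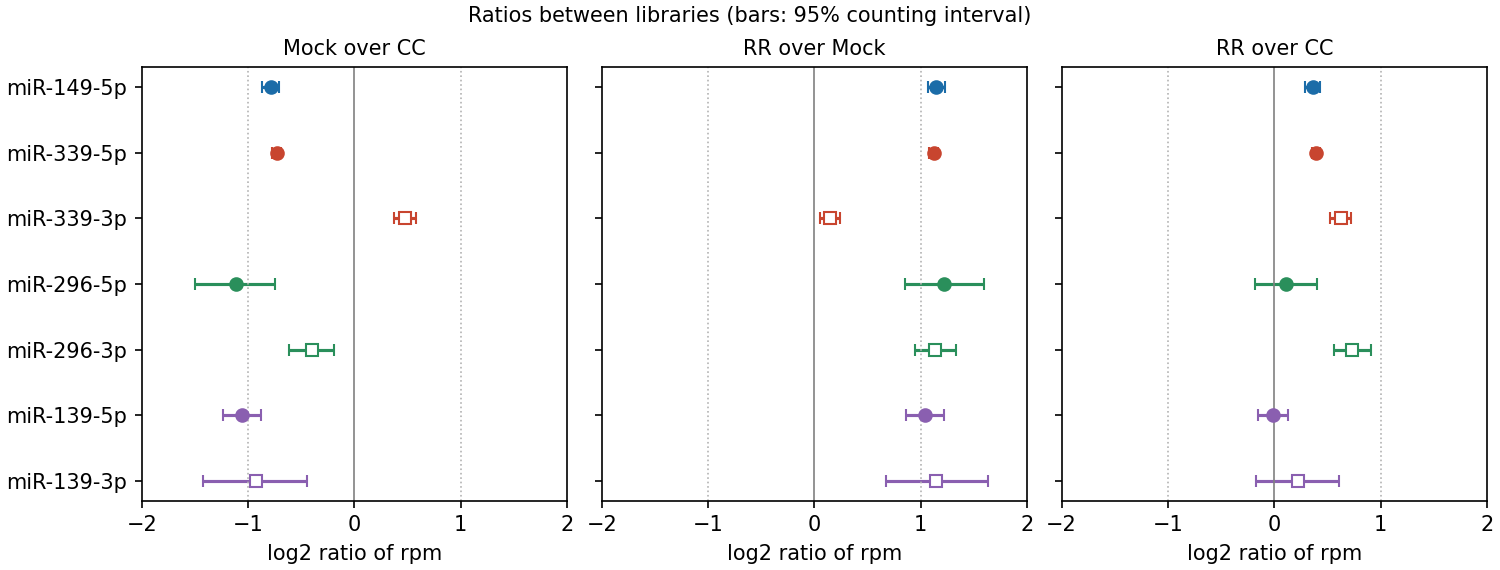
Log2 ratio of rpm (no pseudocount) between libraries for each 5p strand (filled circles) and 3p strand (open squares), with 95% counting intervals; dotted lines mark 2-fold. In Mock over CC the 5p strands lie 1.66-fold to 2.17-fold lower, with miR-149-5p and miR-339-5p short of the 2-fold line. They lie 2.06-fold to 2.33-fold higher in RR over Mock and between 0.991-fold and 1.31-fold in RR over CC. miR-339-3p lies above 1-fold in Mock over CC at the deposited scale, but not by share of listed miRNA reads (log2 -0.03).

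The strand cut from the other side of each hairpin was not used by the rule. The hairpins of miR-339 and miR-296 are shown because the proportion of their strands differed between libraries; capitals mark the 5p and 3p strands (RefSeq, GRCh38.p14, minus strand, chr7:1022933-1023026 and chr20:58817615-58817694).
MIR339: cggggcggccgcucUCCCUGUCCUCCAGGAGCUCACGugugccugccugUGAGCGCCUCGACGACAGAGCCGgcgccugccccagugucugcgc
MIR296: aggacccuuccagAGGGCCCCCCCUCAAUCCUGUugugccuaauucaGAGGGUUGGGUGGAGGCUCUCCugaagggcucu

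miR-339-3p stood at 189 rpm in RR (181 to 198), 171 rpm in Mock (163 to 179) and 123 rpm in CC (117 to 130). It was 1.39-fold higher in Mock than in CC (1.30 to 1.49), where miR-339-5p was lower, although its GC content of 69.6% exceeds that of the 5p strand. Its direction in Mock over CC depended on the scaling: the log2 ratio of 0.47 became 0.17 by median ratio, 0.13 without the 10 most abundant miRNAs and -0.03 by share of listed miRNA reads. Per read of the 3p strand there were 6.88 reads of the 5p strand in RR (6.57 to 7.22), 3.50 in Mock (3.32 to 3.68) and 8.08 in CC (7.63 to 8.56). This ratio does not depend on how the libraries are scaled. Of 38 hairpins with both strands measured, miR-339 had the lowest shift of log2 5p over 3p in Mock over CC, -1.21, beside a median of 0.17. Since the rule chose the 5p strand as low in Mock, the size of that shift is a description. In RR over CC, which the rule did not use, the shift was -0.23, the 8th lowest of 38, and the counting intervals of RR and CC did not overlap.

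In the miR-296 hairpin the 3p strand was the more abundant, at 67.5 rpm in RR (62.6 to 72.7), 30.8 rpm in Mock (27.5 to 34.3) and 40.7 rpm in CC (36.9 to 44.7). The 5p strand made up 22.2% of the reads of both strands in RR (exact binomial interval 19.6% to 25.1%), 21.2% in Mock (17.4% to 25.5%) and 30.6% in CC (27.0% to 34.3%). Here RR and Mock were alike within counting error and CC lay apart from both. miR-296-3p was 1.66-fold higher in RR than in CC (1.47 to 1.87), while miR-296-5p had the ratio of 1.08 given above. Its log2 ratio of 0.72 became 0.34 by median ratio, 0.41 without the 10 most abundant miRNAs and 0.39 by share of listed miRNA reads. The shift of log2 5p over 3p in RR over CC was -0.63, the 2nd lowest of 38 hairpins after that of miR-210 (-0.79), beside a median of 0.05. In Mock over CC the shift was -0.71, the 3rd lowest, which is a description, since the rule chose the 5p strand as low in Mock.

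Both strands of miR-139 kept their proportion. miR-139-3p, with a mean of 8.82 rpm below the limit for measured miRNAs, had 11.5 rpm for RR, 5.17 for Mock and 9.84 for CC, from 120, 55 and 106 reads. The 5p strand made up 86.6% of the reads of both strands in RR (84.2% to 88.8%), 87.4% in Mock (84.0% to 90.4%) and 88.4% in CC (86.1% to 90.4%), and these intervals overlap. miR-139-3p, at 65.2% GC, was 1.90-fold lower in Mock than in CC (1.36 to 2.69), close to the 2.08-fold of miR-139-5p. miR-149-3p had 0 reads in RR, 1 in Mock and 1 in CC, at or under the floor of 3 reads (0.286, 0.282 and 0.279 rpm), so no ratio is given. It is the richest in GC of the 8 strands, at 76.2%, with 13 G and 3 C.

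**Figure D3:**
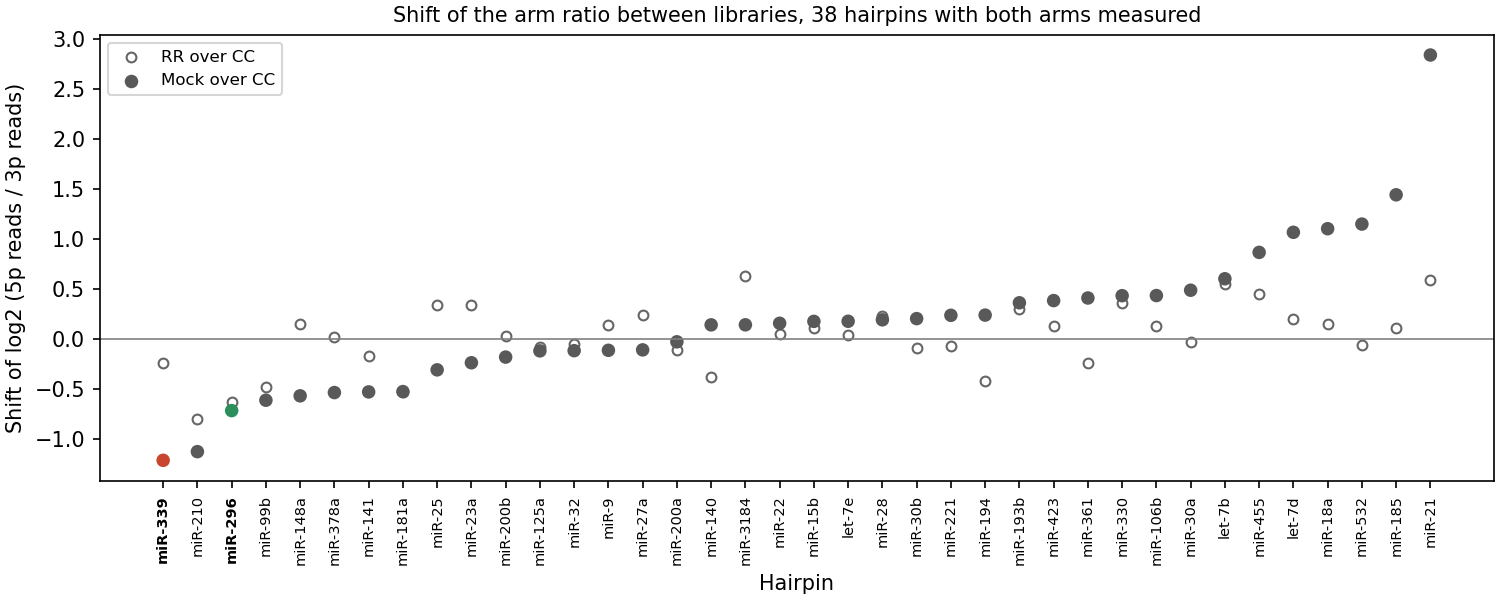
Shift between libraries of log2 (5p reads over 3p reads) for 38 hairpins with both strands measured, ordered by Mock over CC (filled, with miR-339 in red and miR-296 in green); open circles are RR over CC. miR-339 has the lowest filled point at -1.21 and miR-296 the third lowest at -0.71, with its open point (-0.63) close to it. The rule chose both 5p strands as low in Mock, so the places of these filled points are a description.

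GC content alone did not order these strands, so the measured miRNAs were also described by each base. Over 208 miRNAs the Spearman correlation with the log2 ratio Mock over CC was -0.55 for GC content as a whole. For the share of cytosine it was -0.51 and for the share of guanine 0.10. In RR over Mock it was 0.60 for GC content, 0.43 for cytosine and 0.04 for guanine. In RR over CC, where GC content as a whole had a correlation of 0.05, cytosine had -0.24 and guanine 0.35. These are descriptions across miRNAs of the same 3 libraries, which are not independent replicates, and the base content of an RNA also goes with its family. Among the 85 GC-rich miRNAs that are no members, the correlations in Mock over CC were -0.42 for GC content, -0.28 for cytosine and 0.14 for guanine.

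All 4 members hold more C than G. The 32 other GC-rich miRNAs with more C than G had a median log2 ratio Mock over CC of -0.35, and 23 of them (71.9%) were below 0. The 53 GC-rich miRNAs with at least as much G as C had a median of 0.14, and 24 of them (45.3%) were below 0. Counts below or above 0 in this paragraph hold at the deposited scale, where the median of all 208 was 0.28. That median became -0.01 by median ratio, -0.06 without the 10 most abundant miRNAs and -0.22 by share, so such counts depend on the scaling. In RR over Mock the medians were 0.61 and 0.35. The members miR-149-5p, miR-339-5p and miR-296-5p hold 40% C or more, a limit chosen after the values were seen. Of the 20 other measured miRNAs past that limit, 18 had a ratio below 0 in Mock over CC (90%) and all 20 had a ratio above 0 in RR over Mock, beside 72 of 208 (34.6%) and 113 of 208 over all measured miRNAs. Of the 3p strands, miR-296-3p, with 50% G and 18.2% C, had a log2 ratio Mock over CC of -0.39. It became 0.13 with a linear GC trend removed so that 50% GC is unmoved, but relative to the trend line itself it was -0.13. It was -0.69 by median ratio, -0.73 without the 10 most abundant miRNAs and -0.89 by share of listed miRNA reads. miR-339-3p, with 34.8% of each, had 0.47, which became -0.03 by share of listed miRNA reads, so its direction depended on the scaling. miR-139-3p, below the limit for measured miRNAs, holds 10 G and 5 C. Its log2 ratio of -0.81 kept its sign with the GC trend removed, at -0.37. What base content does to these libraries was not tested.

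**Figure D4:**
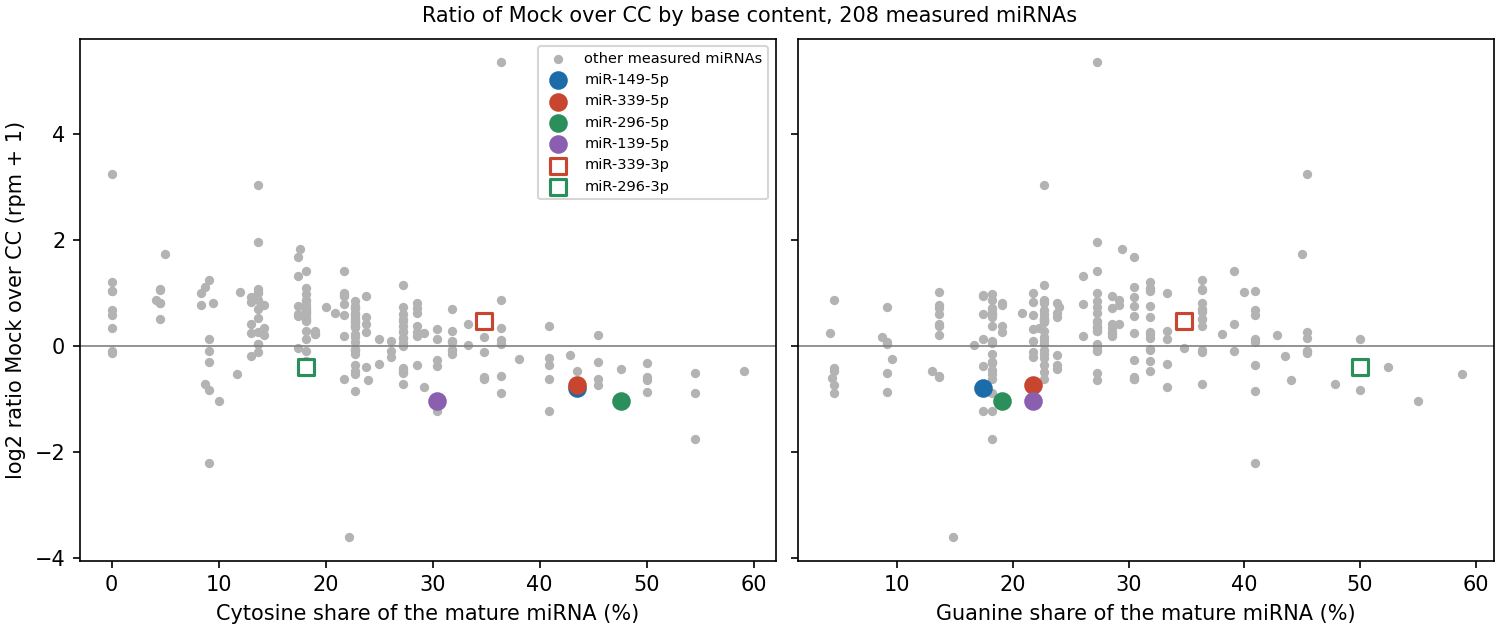
Log2 ratio Mock over CC (rpm + 1) against the cytosine share (left) and the guanine share (right) of the mature miRNA for 208 measured miRNAs; filled circles are the 4 5p strands (miR-149-5p lies under miR-339-5p on the left) and open squares the 3p strands with a mean of 10 rpm or more. Ratios are lower at higher cytosine shares (Spearman -0.51), while the correlation with guanine is 0.10 and that with GC content -0.55. The 4 members lie at 30.4% to 47.6% C.

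Against miRNAs of similar GC content the 4 were placed unevenly. Their low places in Mock over CC are a description, as the rule chose the members for low values in Mock. Within 5 percentage points of the 52.2% of miR-139-5p lay 71 other miRNAs with a median log2 ratio Mock over CC of 0.24, and 2 of them had a lower ratio than miR-139-5p. miR-296-5p had 31 such neighbours with a median of -0.39, 1 of them lower. miR-149-5p had 50 with a median of -0.14, 6 of them lower, and miR-339-5p had 32 with a median of -0.34, 5 of them lower. Relative to that median miR-139-5p lay at -1.27 on the log2 scale, and the other 3 between -0.64 and -0.39 relative to theirs. In RR over CC miR-149-5p and miR-339-5p lay 0.0040 and 0.03 above the medians of their neighbours, and miR-296-5p and miR-139-5p at -0.28 and -0.33 relative to theirs.

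A linear GC trend was removed so that 50% GC is unmoved. The log2 ratios Mock over CC then became -0.47 for miR-149-5p, -0.29 for miR-339-5p, -0.55 for miR-296-5p and -0.97 for miR-139-5p. With 50% GC unmoved, none was past 2-fold. Relative to the trend line itself the ratios were -0.73, -0.55, -0.81 and -1.23 in that order. By that measure miR-139-5p was past 2-fold lower. A linear trend in C and G shares, tried after the values were seen, left -0.24, -0.12, -0.31 and -0.89 in the same order. In RR over Mock none was past 2-fold after either correction, with values of 0.80, 0.65, 0.61 and 0.95 without the GC trend. All these values kept the sign of the uncorrected ratio.

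At the GC limit of the rule, miR-139-5p lies just inside, as do miR-767-5p, miR-93-5p, miR-191-5p and miR-92a-1-5p with the same 52.2%, whose log2 ratios Mock over CC were -0.63, -0.03, 0.33 and 0.42. Just outside, at 50% GC, were 22 measured miRNAs with a median of 0.32, from -2.20 for miR-320b to 1.74 for miR-320c. Of the 89 GC-rich miRNAs 51 were lowest in Mock among the 3 libraries, beside 71 of all 208 measured miRNAs. Of the 89, 20 were lower in Mock than in both others by 1.5-fold or more, the 4 members among them. By 2-fold or more there were 4, namely miR-139-5p, miR-296-5p, miR-193b-3p and miR-210-5p. Nothing is read from the members' place in these counts, as the rule chose them for low values in Mock.

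The GC-rich miRNAs outside the group that stood lowest in Mock over CC were miR-210-5p (4.23 rpm in Mock and 16.6 in CC), miR-193b-3p (26.4 and 63.0), miR-877-5p (6.49 and 14.3), miR-197-3p (339 and 622), the squamous miR-205-5p (14174 and 25945) and miR-574-3p (115 and 209). Their log2 ratios were -1.75, -1.22, -1.03, -0.87, -0.87 and -0.85. The 6 highest were miR-486-5p (398 rpm in Mock and 8.73 in CC), miR-550a-5p (38.8 and 13.8), miR-378c (26.6 and 12.5), miR-222-3p (577 and 300), miR-24-3p (1541 and 906) and miR-140-3p (14.4 and 8.26). Their log2 ratios were 5.36, 1.43, 1.03, 0.94, 0.77 and 0.73, so a high GC content was not always met with a low ratio.

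Likeness of pattern was measured as the distance between the pairs of log2 ratios Mock over CC and RR over CC, over 3 libraries. miR-149-5p and miR-339-5p lay 0.06 apart, and miR-296-5p and miR-139-5p 0.11 apart, while the distances across these pairs were 0.35 to 0.50. For miR-296-5p the distances rest on 88 to 202 reads a library, and its place nearer to miR-139-5p is not shown beyond counting error. Beside its partner, miR-149-5p was nearest to miR-185-3p (0.11) and miR-193b-5p (0.11), and miR-339-5p to miR-185-3p (0.05) and miR-1343-3p (0.09). The level of miR-185-3p was 35.8 rpm for RR, 15.7 for Mock and 26.3 for CC. miR-296-5p was nearest to miR-205-5p (0.18) and miR-197-3p (0.19), and miR-139-5p to miR-197-3p (0.16) and miR-574-3p (0.19). The level of miR-197-3p was 618 rpm for RR, 339 for Mock and 622 for CC. The GC content of these neighbours ran from 54.5% for miR-205-5p to 77.3% for miR-1343-3p.

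miRNAs of similar abundance had ratios nearer to 0 or above it, a description only, since the rule chose the members as low in Mock. The neighbours of miR-339-5p by mean level, miR-125b-5p above and miR-93-5p below, had log2 ratios Mock over CC of 0.09 and -0.03. Those of miR-149-5p, miR-1-3p and miR-1180-3p, had -0.09 and -0.34. Those of miR-139-5p, miR-429 and miR-374b-5p, had 0.56 and 0.61, and those of miR-296-5p, miR-2110 and miR-425-5p, had -0.09 and -0.37. The nearest to the members' ratios, miR-1180-3p and miR-425-5p, have a GC content of 63.6% and 47.8%.

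Lists that hold some of the 4 were counted without them. Of 21 measured miRNAs known to lie in introns of host genes, 2 were past 2-fold higher in Mock over CC (miR-486-5p and miR-103a-3p) and none lower, with a median of 0.38, beside 12% higher and 3.85% lower over all 208. In RR over Mock 2 of the 21 were past 2-fold lower (4.81% of 208) and none higher, and in RR over CC none was past it, with a median of 0.36. Within this list miR-574-3p, at 59.1% GC, had -0.85 in Mock over CC, and miR-744-5p, at 63.6%, had 0.08. Of 9 measured miRNAs described as restraining growth of head and neck squamous carcinoma, 1 was past 2-fold higher in Mock over CC (miR-99a-5p) and none lower, with a median of 0.25. Of these 9, miR-375-3p had 31.4 rpm for RR, 17.9 for Mock and 25 for CC, the order of miR-149-5p. In RR over CC all 9 had a ratio above 0, as had 182 of 208 measured miRNAs, with a median of 0.41.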

How the data were processed

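Small RNA was ligated to adapters, amplified and size-selected with a New England Biolabs kit before NovaSeq sequencing in read pairs, per the labels' protocols. The submitters' processing notes name Bowtie and GRCh38 without saying what each was used for. Trimming, strand and the handling of multiply matching reads were not given in the sources used here. The deposited values, which the authors call TPM, behave as RPM: in each library all 1149 values were whole multiples, within 0.01 of a read, of a step of 0.0955 rpm for RR, 0.0940 for Mock and 0.0929 for CC. Whole reads were thereby recovered for 100% of values. With 1 library per group no count model was fitted.

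The 4 members, the lists and the rules for naming were chosen with earlier results of these data known. Levels have exact Poisson intervals and ratios have limits from the Clopper-Pearson interval of the share of reads, both at 95%. Log2 ratios were taken after adding 1 rpm, over miRNAs averaging at least 10 rpm, and counted past 2-fold. Named miRNAs were the members, their opposite strands, the 6 lowest and 6 highest other GC-rich miRNAs by Mock over CC, the 3 nearest in pattern and the 2 nearest in mean to each member, and up to 4 per list. miRNAs at the limits of GC content, miR-744-5p, miR-375-3p and miR-210 were named after their values were seen. The GC trend was a linear fit over the 208 miRNAs that leaves 50% GC unmoved. The ratio code was tested on simulated data. The work used scipy 1.17.1 for intervals, with pandas 2.3.3 and numpy 2.4.6 under Python 3.11.15, and matplotlib 3.10.9 for figures.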

Additional observations from a re-analysis of the deposited data

How the results depend on the processing

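No alternative turned the direction of a member's log2 ratio in Mock over CC or RR over Mock. The counts of members past 2-fold did depend on the processing: 2 were lower in Mock over CC, against 4 under each of 3 other scalings (median ratio, scaling without the 10 most abundant miRNAs, share of listed miRNA reads) and under a 1.5-fold limit, and 0 with a pseudocount of 10, a mean of 100 rpm or more, a 4-fold limit, or the GC or the C and G trend removed. In RR over Mock the count of 4 became 3 by median ratio (miR-139-5p at 0.94). It became 2 with a pseudocount of 10 or a mean of 100 rpm or more, and 0 with a 4-fold limit or either trend removed. Counts without the GC trend hold with 50% GC unmoved. Relative to the GC trend line itself, miR-139-5p was past 2-fold lower in Mock over CC, at -1.23. The limit of 100 rpm left out miR-296-5p (mean of 15.2 rpm) and miR-139-5p (61.6 rpm). Under it the counts of 0 and 2 thus cover miR-149-5p and miR-339-5p only, whose ratios did not change. Of all 208 measured miRNAs, 8 were past 2-fold lower and 25 higher in Mock over CC, against 31 and 7 by share of listed reads.

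For miR-149-5p and miR-339-5p, the log2 ratios Mock over CC became -1.09 and -1.03 by median ratio, -1.13 and -1.08 without the 10 most abundant, and -1.29 and -1.24 by share. Without the GC trend they were -0.47 and -0.29, and without the C and G trend, added after seeing the data, -0.24 and -0.12. Those of miR-296-5p became -1.50 by share, -0.55 and -0.31 without the trends and -0.61 with a pseudocount of 10. Those of miR-139-5p became -1.33, -1.38 and -1.53 under the 3 scalings. In RR over Mock, miR-149-5p and miR-339-5p had 1.06 and 1.04 by median ratio, 1.32 and 1.30 by share, 0.80 and 0.65 without the GC trend, and 0.69 and 0.56 without the C and G trend. miR-296-5p had 0.61 and 0.49 without the trends and 0.68 with a pseudocount of 10. In RR over CC, in the order miR-149-5p, miR-339-5p, miR-296-5p and miR-139-5p, the ratios were -0.025, 0.0065, -0.26 and -0.39 by median ratio, 0.041, 0.072, -0.20 and -0.33 without the 10 most abundant, and 0.023, 0.055, -0.22 and -0.34 by share. miR-339-5p had 0.35 without the GC trend, and miR-149-5p and miR-339-5p each had 0.44 without the C and G trend. For the 3p strands, miR-339-3p ranged from -0.03 by share to 1.04 without the GC trend in Mock over CC, and its 0.14 in RR over Mock became -0.47 and -0.44 without the GC and the C and G trend. In RR over CC its 0.62 became 0.24, 0.30 and 0.28 under the 3 scalings, and the 0.20 of miR-139-3p became -0.15, -0.09 and -0.11. The cause was not tested. No paired analysis was possible because each group has 1 library, so no replicate could be left out either. At 88 reads in Mock, miR-296-5p has the widest interval of the 4.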
